A study of Homo sapiens with 28 samples.

Results

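CEACAM1, CEACAM5, CEACAM6 and CEACAM7 are 4 of the 60483 Ensembl genes counted in 28 RNA libraries of 2 human lung adenocarcinoma lines, A549 and H1944. They were picked by name, with earlier results in view, for how their counts differed between TGF-β1-treated and naive cells of each line and between the reporter gates of H1944. Those contrasts are therefore given as values without a test, and tests are given for GSK126 against naive cells, for the reporter gates of A549 and for the difference between the lines in the GSK126 effect. Cells of all groups carried the synthetic reporter MGT#1-mVenus, whose fluorescent protein mVenus is meant to mark mesenchymal cells. Treatment lasted 11 days, with either 5 ng/ml of TGF-β1, which drives epithelial cells towards a mesenchymal state, or 5 µM of GSK126, which blocks EZH2, the enzyme that places the repressive histone mark H3K27me3. They were then flow sorted into a reporter-high and a reporter-low gate, whereas the naive cells were neither treated nor sorted. A549 had 3 high and 2 low libraries under TGF-β1, 2 high and 3 low libraries under GSK126 and 3 naive libraries, while each of the 5 H1944 groups had 3. Libraries carry the letters A to C, given below in that order (A549 low TGF-β1 has A and C, A549 high GSK126 has A and B). No label says that letters are separate cultures, so the p-values measure only the spread between these libraries, which may be technical.

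CEACAM proteins belong to the immunoglobulin superfamily and bind one another, or themselves, between and along cell surfaces. CEACAM1 spans the membrane and, in its long form, carries inhibitory tyrosine motifs that recruit the phosphatases SHP-1 and SHP-2. CEACAM5, the carcinoembryonic antigen used as a serum tumour marker, and CEACAM6 and CEACAM7 are held in the outer membrane leaflet by a glycosylphosphatidylinositol (GPI) anchor. CEACAM5 and CEACAM6 are widely found on lung adenocarcinoma cells, and CEACAM7 is mainly known from colon and pancreatic duct epithelium.

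All 4 genes lie on the long arm of chromosome 19, and 3 of them are next to each other. In GENCODE 29 on GRCh38, CEACAM7 runs on the minus strand over chr19:41673307-41706976. CEACAM5 runs on the plus strand over chr19:41708585-41729798, with 1609 bases between the outermost annotated ends of these genes. CEACAM6 follows on the plus strand over chr19:41750977-41772208, 21179 bases beyond CEACAM5, and CEACAM1 lies on the minus strand over chr19:42507304-42561234. RefSeq promoter sequences on GRCh38.p14 matched all 4 genes. The 250 bases before each RefSeq start are shown because CEACAM1, CEACAM5 and CEACAM6 rose together under GSK126 in H1944. The windows are chr19:41755280-41755529 (plus strand) for CEACAM6, chr19:41708376-41708625 (plus) for CEACAM5, chr19:41688271-41688520 (minus) for CEACAM7 and chr19:42528482-42528731 (minus) for CEACAM1. Those of CEACAM6, CEACAM7 and CEACAM1 lie inside the GENCODE extents given above, whose outer ends differ from the RefSeq starts. The distances above are therefore not distances between RefSeq starts. Each is written 5′ to 3′ on its gene's strand, with the palindrome CACGTG in capitals:
CEACAM6: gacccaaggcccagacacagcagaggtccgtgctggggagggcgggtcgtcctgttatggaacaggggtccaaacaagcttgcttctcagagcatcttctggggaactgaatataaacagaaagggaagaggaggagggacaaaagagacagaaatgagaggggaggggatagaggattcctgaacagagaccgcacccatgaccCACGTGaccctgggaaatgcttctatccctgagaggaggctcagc
CEACAM5: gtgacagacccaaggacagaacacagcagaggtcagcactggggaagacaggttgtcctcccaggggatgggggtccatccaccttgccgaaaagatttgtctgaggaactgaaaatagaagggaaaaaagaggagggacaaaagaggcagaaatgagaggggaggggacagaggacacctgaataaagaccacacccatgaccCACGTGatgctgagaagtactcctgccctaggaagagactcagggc
CEACAM7: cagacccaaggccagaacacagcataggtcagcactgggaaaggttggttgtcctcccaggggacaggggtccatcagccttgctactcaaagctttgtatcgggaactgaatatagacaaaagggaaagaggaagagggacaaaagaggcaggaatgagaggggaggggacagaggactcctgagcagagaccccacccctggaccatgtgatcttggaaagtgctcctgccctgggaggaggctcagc
CEACAM1: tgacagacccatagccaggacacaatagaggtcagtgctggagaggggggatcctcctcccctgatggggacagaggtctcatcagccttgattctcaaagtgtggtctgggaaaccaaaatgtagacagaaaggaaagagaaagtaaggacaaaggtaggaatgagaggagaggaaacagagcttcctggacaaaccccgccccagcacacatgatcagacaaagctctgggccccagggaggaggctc

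The 4 windows resemble each other and those of other CEACAM genes. In pairwise alignments of the 250 bases, CEACAM5 and CEACAM7 were identical at 82.4% of the window, CEACAM6 and CEACAM7 at 79.6%, and CEACAM5 and CEACAM6 at 76.0%. CEACAM1 shared 72.8% with CEACAM7, 70.8% with CEACAM6 and 66.8% with CEACAM5. Windows of other genes came as close as the CEACAM1 pairs, with 75.2% between CEACAM6 and CEACAM3 and 72.4% between CEACAM7 and CEACAM3. The 36 pairs of 1 of the 4 with another CEACAM or PSG gene ran from 42.4% to 75.2%, below the pairs among CEACAM5, CEACAM6 and CEACAM7. CACGTG, an E-box bound by USF factors, began 46 bases before the start in CEACAM5 and 45 bases before it in CEACAM6, and was in neither of the other windows. It occurred, on either strand, in 6.34% of 35116 RefSeq promoter windows of the same length. CAGAC, a SMAD-binding element, was in all 4 windows, 3 times in CEACAM1, 2 times in CEACAM5 and 1 time each in CEACAM6 and CEACAM7, and in 38.0% of all windows. GGGCGG, an SP1 box, was in CEACAM1 and CEACAM6 and in 42.6% of all windows, and CAGGTG, an E-box of SNAI and ZEB factors, in CEACAM5 and in 17.5% of all windows. TGACTCA (AP-1; 4.20% of all windows) and TTTATNG (CDX; 8.93%) were in none of the 4. Both strands were searched, no motif overlapped another, and a match is a run of letters and not a measured binding site.

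Total counts ran from 2013449 to 9550143 per library in A549 and from 1660148 to 13280592 in H1944, and levels are given as CPM, counts scaled to the library's total. The count of 3 reads taken as the detection floor was worth 0.314 to 1.49 CPM in A549 libraries and 0.226 to 1.81 CPM in H1944 libraries. All 6 epithelial markers (EPCAM, CDH1, KRT7, KRT8, KRT18 and KRT19) had counts in every group but 1, the low TGF-β1 gate of H1944, where KRT19 was at 0. The 9 granulocyte markers, of interest because granulocytes also carry CEACAM genes, summed to at most 27.5 CPM in A549 and 9.15 CPM in H1944. Reads over 381 olfactory receptor genes, used as a measure of background, summed to 6.27 to 313 CPM in A549 and 3.62 to 75.1 CPM in H1944. The highest were A549 high TGF-β1 library B at 313 CPM and A549 naive library A at 202 CPM, so results of A549 are also given without both. In bulk RNA, fewer cells of a type and less RNA per cell cannot be told apart.

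CEACAM6 had the widest range of the 4 genes, and its highest levels were in naive and GSK126-treated A549 cells. In A549 the TGF-β1 libraries held 7.66, 6.43 and 5.65 CPM of CEACAM6 in the high gate and 5.08 and 6.71 CPM in the low gate. The GSK126 libraries held 435 and 381 CPM in the high gate and 290.2, 351 and 299.7 CPM in the low gate, against 571, 614 and 601 CPM in the naive libraries. The 3 arms did not overlap, with all TGF-β1 libraries below 10 CPM and all GSK126 libraries between them and the naive cells. In H1944 the TGF-β1 libraries held 9.06, 5.83 and 9.03 CPM of CEACAM6 in the high gate and 20.5, 15.1 and 17.2 CPM in the low gate. The GSK126 libraries held 108, 108 and 80.9 CPM in the high gate and 99.2, 91.3 and 92.6 CPM in the low gate, against 5.89, 5.41 and 6.33 CPM in the naive libraries. Every GSK126 library of H1944 lay far above every naive one, and the low TGF-β1 gate lay between them. Ordered by mean over all 10 groups, CEACAM6 ran from naive A549 through its high and low GSK126 gates, the high and low GSK126 gates of H1944, its low and high TGF-β1 gates, and the high and low TGF-β1 gates of A549 to naive H1944. Neighbours in this order overlapped between the GSK126 gates of H1944 and among the last 4 groups, and were apart elsewhere.

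CEACAM5 was low in A549 and highest under GSK126 in H1944. In A549 the TGF-β1 libraries held 0, 8.65 and 1.15 CPM of CEACAM5 in the high gate and 1.95 and 1.56 CPM in the low gate. The GSK126 libraries held 10.7 and 9.98 CPM in the high gate and 8.99, 9.93 and 12.52 CPM in the low gate, against 6.09, 3.47 and 3.81 CPM in the naive libraries. All GSK126 libraries were above all naive ones, while the TGF-β1 libraries spread over both sides, with the single high value in background-rich library B. In H1944 the TGF-β1 libraries held 4.08, 4.58 and 3.14 CPM of CEACAM5 in the high gate and 12.2, 15.1 and 9.80 CPM in the low gate. The GSK126 libraries held 43.3, 56.0 and 53.9 CPM in the high gate and 62.5, 58.4 and 61.6 CPM in the low gate, against 5.89, 8.73 and 6.10 CPM in the naive libraries. The high TGF-β1 gate lay below naive H1944 cells and the low gate above them, and both GSK126 gates lay above all of these. By mean level the 10 groups ran from the low and high GSK126 gates of H1944 through its low TGF-β1 gate, the low and high GSK126 gates of A549, naive H1944, naive A549 and the high TGF-β1 gate of H1944 to the high and low TGF-β1 gates of A549. Of the neighbours in this order, the first 3 groups were apart from each other and the high GSK126 gate of A549 from naive H1944, and the other neighbours overlapped.

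CEACAM7 was low in both lines, with at most 26 counts in a library. In A549 its counts were 1, 26 and 15 in the high TGF-β1 gate, 23 and 12 in the low TGF-β1 gate, 4 and 0 in the high GSK126 gate, 10, 1 and 2 in the low GSK126 gate and 7, 5 and 3 in naive cells. As levels, the TGF-β1 libraries of both gates ran from 0.333 to 5.76 CPM, the GSK126 libraries from 0 to 2.09 CPM and the naive libraries from 0.457 to 1.01 CPM, so that all 3 overlapped. In H1944 no library had more than 3 CEACAM7 counts, with 7 counts in all 6 TGF-β1 libraries together, 7 in the 6 GSK126 libraries and 0 in the 3 naive libraries, which allows up to 0.166 CPM over the naive group by counting error alone. No order of the groups can be read from so few counts.

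CEACAM1, the transmembrane receptor of the family, was highest under GSK126 in H1944 and lowest under TGF-β1 in the same line. In A549 the TGF-β1 libraries held 0.333, 13.1 and 1.47 CPM of CEACAM1 in the high gate and 4.56 and 6.86 CPM in the low gate. The GSK126 libraries held 5.34 and 5.70 CPM in the high gate and 8.36, 12.4 and 10.4 CPM in the low gate, against 13.8, 6.22 and 4.73 CPM in the naive libraries. All 3 treatments overlapped, and the highest TGF-β1 and the highest naive value were those of the background-rich libraries. In H1944 the TGF-β1 libraries held 0.453, 0.833 and 0.786 CPM of CEACAM1 in the high gate and 0.916, 1.81 and 1.96 CPM in the low gate, on 1 to 5 counts each. The GSK126 libraries held 14.1, 17.6 and 17.3 CPM in the high gate and 21.7, 15.6 and 18.7 CPM in the low gate, against 4.20, 2.08 and 3.92 CPM in the naive libraries. TGF-β1, naive and GSK126 libraries of H1944 thus formed 3 separate levels in rising order. The lower levels were close, with a highest TGF-β1 value of 1.96 CPM and a lowest naive value of 2.08 CPM, both on few counts. Over the 10 groups CEACAM1 was highest in the low and high GSK126 gates of H1944, which overlapped, then in the low GSK126 gate, naive cells, low TGF-β1 gate, high GSK126 gate and high TGF-β1 gate of A549. These A549 neighbours overlapped each other, and the last of them overlapped naive H1944. Naive H1944, its low TGF-β1 gate and its high TGF-β1 gate came last, each apart from the next. The TGF-β1 gates were apart by 0.916 against 0.833 CPM, values at or below the floor of 3 counts in their libraries.

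**Figure D1:**
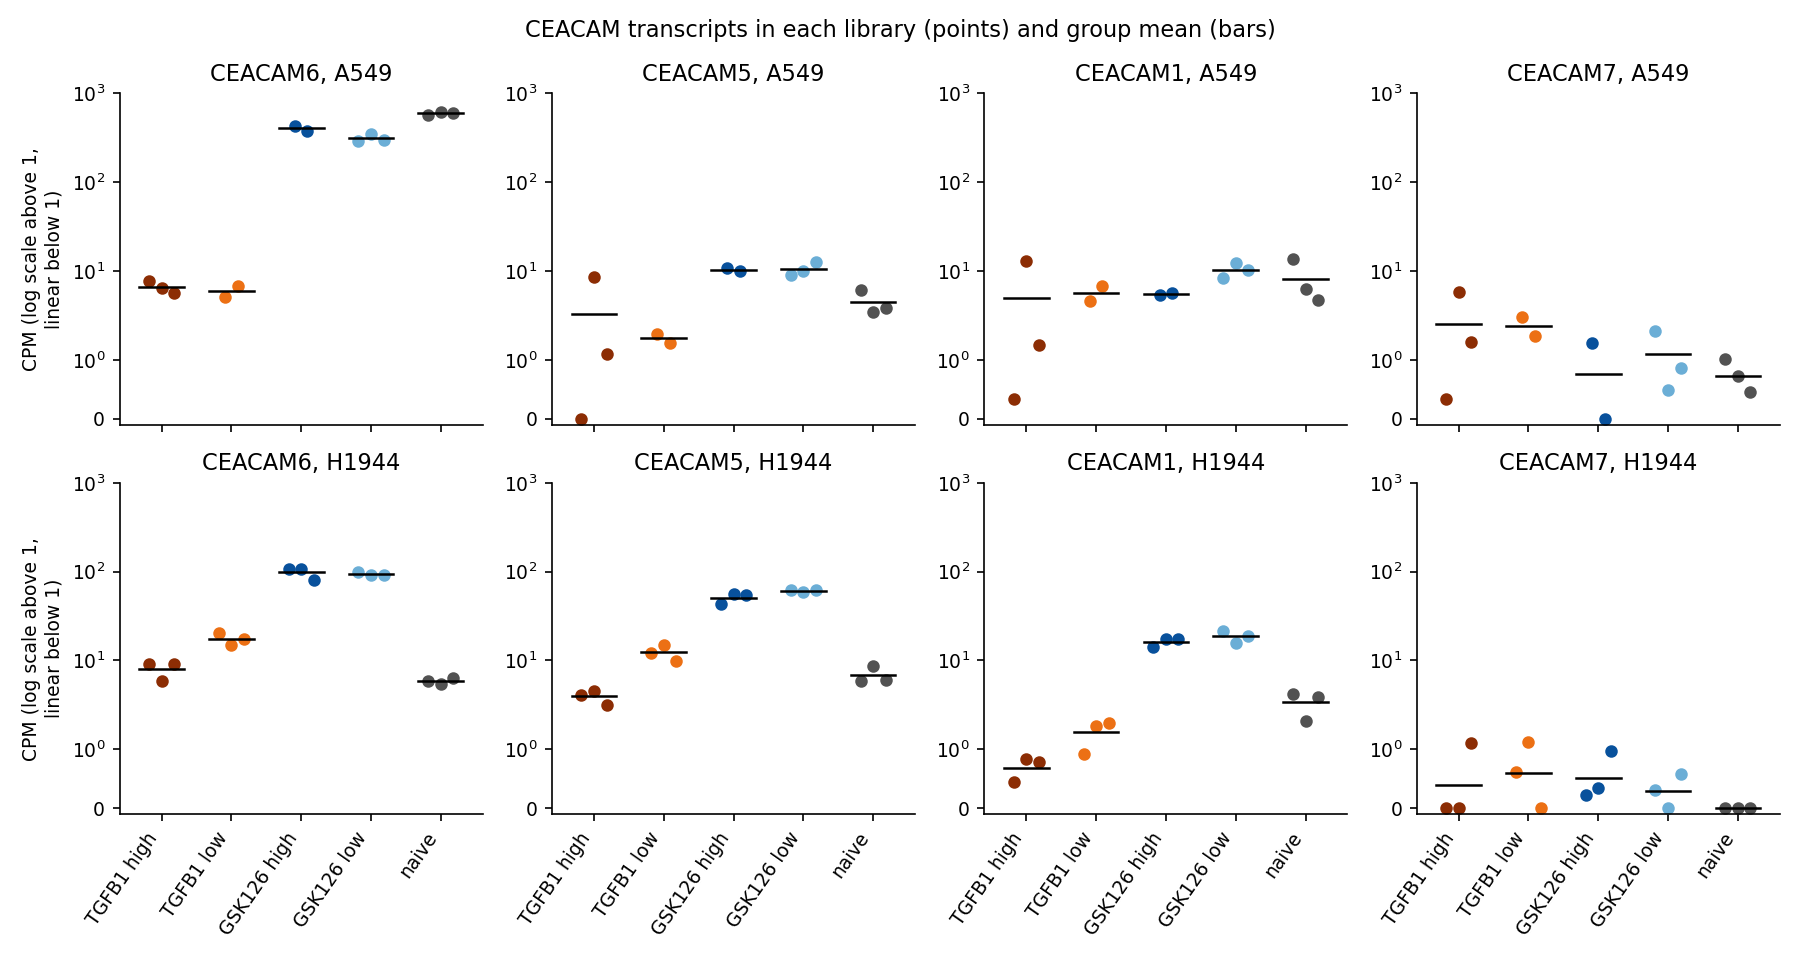
CPM of CEACAM6, CEACAM5, CEACAM1 and CEACAM7 (columns) in A549 (upper row) and H1944 (lower row), on an axis that is logarithmic above 1 CPM and linear below it. Points are libraries and bars are group means, from the TGF-β1 gates on the left to naive cells on the right. CEACAM6 stood between 571 and 614 CPM in naive A549 and below 10 CPM in its TGF-β1 gates, and in H1944 CEACAM6, CEACAM5 and CEACAM1 were highest in both GSK126 gates.

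Among the 4 genes, per length of annotated exon sequence, CEACAM6 dominated naive and GSK126-treated A549 and shared H1944 with CEACAM5. In naive A549 cells CEACAM6 stood at 195 ± 7.16 CPM per kb of exon (SD, n = 3), against 1.49 ± 0.877 for CEACAM1, 1.33 ± 0.424 for CEACAM5 and 0.276 ± 0.105 for CEACAM7. CEACAM6 made up 97.6% to 98.9% of the 4 genes' summed CPM per kb in naive A549 libraries, so almost all of that sum was CEACAM6. In the TGF-β1 gates of A549 that sum was 2.69 to 9.23 CPM per kb, against 192 to 204 in naive cells, and CEACAM6 held 22.8% to 93.1% of it. In H1944 the sum was 3.43 to 10.7 CPM per kb under TGF-β1 and 46.1 to 55.3 under GSK126, against 4.45 to 4.75 in naive cells. CEACAM6 held 57.5% to 69.5% of it under GSK126, against 37.3% to 45.04% in naive H1944, and CEACAM5 held 25.3% to 35.1% under GSK126, against 39.5% to 54.8% in naive cells. The CEACAM1 share was 4.99% to 7.11% under GSK126, against 7.92% to 17.1% in naive H1944, although its level was higher. These shares leave out CEACAM19, which has 5203 bases of exon, against 3351 in CEACAM5 and 3052 in CEACAM6. CEACAM19 averaged 12.9 CPM in naive H1944, against 6.91 CPM for CEACAM5 and 5.87 CPM for CEACAM6. Under TGF-β1 it averaged 32.2 CPM in H1944 and 22.9 CPM in A549, against 12.8 and 6.31 CPM for CEACAM6. In these groups CEACAM19 was thus the higher per kb.

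**Figure D2:**
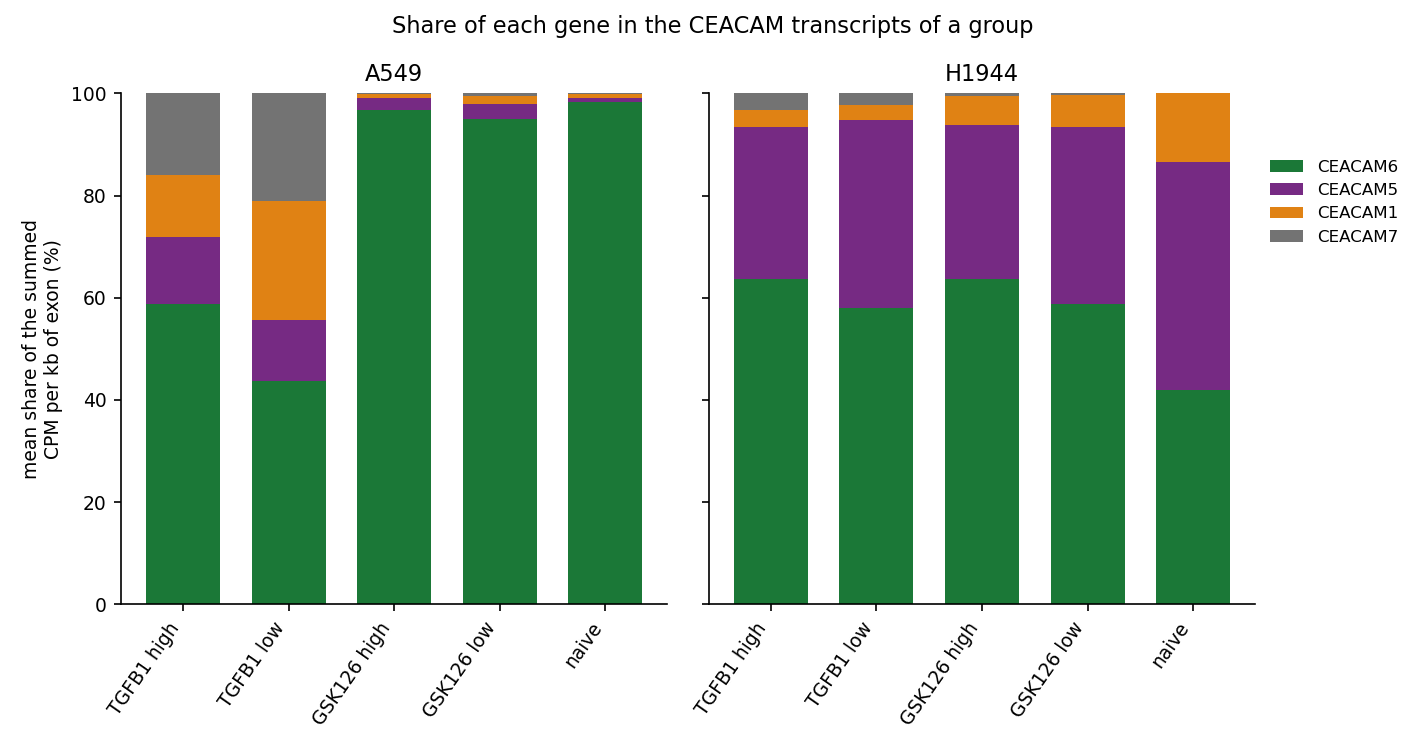
Mean share (%) of each gene in the summed CPM per kb of exon of CEACAM6, CEACAM5, CEACAM1 and CEACAM7, by group, in A549 (left) and H1944 (right). CEACAM6 makes up nearly the whole bar in naive and GSK126-treated A549 cells, whereas CEACAM5 is a large part of every H1944 bar.

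Under GSK126, 3 of the 4 genes rose in H1944, the 3 that passed the filter on low counts. CEACAM6 averaged 96.7 ± 10.5 CPM under GSK126 (SD over both gates, n = 6) and 5.87 ± 0.459 CPM in naive cells (n = 3), 14.6-fold higher (log2 fold change 3.87 ± 0.16 SE, adjusted p = 6.99e-20). CEACAM5 averaged 55.9 ± 6.998 CPM under GSK126 and 6.91 ± 1.59 CPM in naive cells, 7.76-fold higher (2.96 ± 0.17, adjusted p = 3.56e-16). CEACAM1 averaged 17.5 ± 2.63 CPM under GSK126 and 3.40 ± 1.15 CPM in naive cells, 4.402-fold higher (2.14 ± 0.25, adjusted p = 1.38e-08). In each of these genes all 6 GSK126 libraries were above all 3 naive ones, as in 22.1% of the genes tested. The test was edgeR's quasi-likelihood test on the line's 5 groups, with the mean of both gates set against naive cells and Benjamini-Hochberg adjustment over the 13621 genes tested, of which 40.2% passed and 21.5% passed upwards. Ordered by log2 fold change, CEACAM6 was number 127 from the top of these genes, CEACAM5 number 263 and CEACAM1 number 520. The naive libraries are shared with the TGF-β1 contrast, through which the genes were chosen. Sorting and treatment went together in this comparison and cannot be told apart. The epithelial marker sum was 4944 to 7684 CPM in the GSK126 libraries and 4990 to 5620 CPM in the naive libraries of H1944.

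In A549, CEACAM6 fell under GSK126 and none of the other 3 genes passed the test. CEACAM6 averaged 351 ± 59.8 CPM under GSK126 (SD over both gates, n = 5) and 595 ± 21.8 CPM in naive cells (n = 3), 1.79-fold lower (log2 fold change -0.84 ± 0.20 SE, adjusted p = 0.0118 by edgeR's quasi-likelihood test), beside a median of -0.18 over all 19842 genes tested. Of these genes 6.96% passed and 3.37% passed downwards, and in 6.3% all GSK126 libraries lay below all naive ones, as they did for CEACAM6. The call on CEACAM6 was lost without naive library B (-0.69, adjusted p = 0.077), naive library C (-0.80, adjusted p = 0.057) or high GSK126 library B (-0.83, adjusted p = 0.195), and the high gate alone was not past the test (-0.55, adjusted p = 0.268), while without the 2 background-rich libraries the value was -0.94 (adjusted p = 5.92e-05). CEACAM5 averaged 10.4 ± 1.32 CPM under GSK126 and 4.46 ± 1.42 CPM in naive cells, a log2 fold change of 1.18 ± 0.61 that did not pass (adjusted p = 0.330). All 5 GSK126 libraries were above the 3 naive ones, as in 10.2% of the genes tested, and without the 2 background-rich libraries CEACAM5 passed, at 1.33 (adjusted p = 0.0229). CEACAM1 was at 8.44 ± 3.02 CPM under GSK126 and 8.24 ± 4.85 CPM in naive cells (-0.13 ± 0.57, adjusted p = 0.932), and its sign turned without naive library A, to 0.26 (adjusted p = 0.913). CEACAM7 was at 0.996 ± 0.827 CPM under GSK126 and 0.732 ± 0.279 CPM in naive cells (0.31 ± 1.02, adjusted p = 0.906), and its sign turned without high GSK126 library A (-2.23, adjusted p = 0.482) or low GSK126 library A (-0.17, adjusted p = 0.953). The epithelial marker sum was also lower in this contrast, at 8035 to 10775 CPM in the GSK126 libraries and 12184 to 12797 CPM in the naive libraries of A549, with no overlap, and its part in the CEACAM6 value was not tested.

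The GSK126 effect on CEACAM6, CEACAM5 and CEACAM1 was higher in H1944 than in A549 by a test of the difference itself. In a joint fit of all 10 groups with edgeR's quasi-likelihood test, the log2 difference, H1944 minus A549, was 4.71 ± 0.22 for CEACAM6 (adjusted p = 1.66e-15), 1.80 ± 0.50 for CEACAM5 (adjusted p = 0.0167) and 2.36 ± 0.67 for CEACAM1 (adjusted p = 0.0191). The joint fit tested 17918 genes, of which 11.2% passed and 7.14% passed upwards, and CEACAM7 did not pass its filter. It took the same estimate of a gene's spread between libraries for both lines. edgeR's common biological coefficient of variation was 0.21 in it, against 0.36 in the fit of A549 and 0.098 in that of H1944. The SE of the CEACAM5 difference, 0.50, was below the 0.61 of the A549 effect alone. The adjusted p of CEACAM5 and CEACAM1 may therefore understate the spread of A549. CEACAM6 moved in opposite directions, with a called rise in H1944 and a called fall in A549. The CEACAM5 difference was lost without A549 naive library A (1.58, adjusted p = 0.063) or H1944 naive library C (1.66, adjusted p = 0.083). The CEACAM1 difference was lost without A549 naive library A (1.87, adjusted p = 0.082), H1944 naive library B (2.13, adjusted p = 0.058) or H1944 naive library C (2.52, adjusted p = 0.054). Without both background-rich A549 libraries all 3 differences passed, at 4.78 for CEACAM6, 1.59 for CEACAM5 and 1.84 for CEACAM1.

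The TGF-β1 contrasts chose the genes and are described without a test. In A549 the fitted log2 fold change under TGF-β1 was -6.79 ± 0.25 (SE) for CEACAM6, 110-fold lower, which placed it 11th from the bottom of 19842 genes. CEACAM5 had -1.08 ± 0.60, CEACAM1 -0.80 ± 0.55 and CEACAM7 1.55 ± 0.97. Of all genes 19.5% passed the test in this contrast, and libraries lay apart, lower under TGF-β1, in 12.7%. Without the 2 background-rich libraries the values were -6.83 for CEACAM6, -1.77 for CEACAM5, -1.30 for CEACAM1 and 1.25 for CEACAM7. In H1944 the log2 fold change under TGF-β1 was 1.04 ± 0.20 for CEACAM6, 0.14 ± 0.22 for CEACAM5 and -1.72 ± 0.39 for CEACAM1, in a contrast in which 63.7% of the genes passed. CEACAM6 thus had opposite signs in the lines, and only CEACAM1 had all 6 TGF-β1 libraries of H1944 below the 3 naive ones, as did 30.0% of the genes tested. At the closest, CEACAM1 stood at 1.96 CPM under TGF-β1 and 2.08 CPM in naive H1944. The mean over both gates joined opposite signs of CEACAM5 in H1944, at -0.66 in the high gate alone and 0.94 in the low gate alone against naive cells. The 6 epithelial markers moved in the same contrasts, with sums of 4997 to 7385 CPM in TGF-β1-treated and 12184 to 12797 CPM in naive A549 libraries, and of 1495 to 1732 CPM in TGF-β1-treated and 4990 to 5620 CPM in naive H1944 libraries. Their part in the CEACAM values was not tested.

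The reporter gates of H1944, also used in choosing the genes, split them under TGF-β1. High minus low, the log2 fold change was -1.60 ± 0.29 (SE) for CEACAM5, -1.16 ± 0.23 for CEACAM6 and -1.03 ± 0.71 for CEACAM1, the last on 5 counts in the high and 11 in the low gate. In each the 3 high libraries lay below the 3 low ones, as did those of 6.75% of the genes tested, while 0.0587% of the genes passed the test, and CEACAM5 was number 80, CEACAM6 number 169 and CEACAM1 number 204 from the bottom by log2 fold change. Under GSK126 the same contrast was -0.26 ± 0.14 for CEACAM5, 0.09 ± 0.12 for CEACAM6 and -0.20 ± 0.23 for CEACAM1. The CEACAM5 libraries of the high GSK126 gate lay below those of the low gate, as in 10.3% of the genes, and those of the other 2 genes overlapped, in a contrast where 6.92% of the genes passed the test. That share rests on 942 genes, which became 328, 533, 584 and 1536 without low library B and high libraries A, C and B of GSK126, and the 8 genes past the test under TGF-β1 became 0 to 12 with 1 library left out. The mVenus transcript itself was at 2263 to 2428 CPM in the high and 769 to 831 CPM in the low TGF-β1 gate of H1944, and at 808 to 906 CPM in the high and 209 to 280.5 CPM in the low GSK126 gate.

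The gates of A549, which the choice did not use, gave no call for any of the 4 genes. Under TGF-β1 the log2 fold change, high minus low, was 0.19 ± 0.31 (SE) for CEACAM6, 0.80 ± 0.80 for CEACAM5, 0.01 ± 1.08 for CEACAM7 and -0.29 ± 0.71 for CEACAM1 (adjusted p = 1.00 for each by edgeR's quasi-likelihood test). Under GSK126 it was 0.57 ± 0.25 for CEACAM6 (unadjusted p = 0.0332, adjusted p = 0.735), 0.17 ± 0.73 for CEACAM5 (adjusted p = 0.943), -0.58 ± 1.33 for CEACAM7 (adjusted p = 0.894) and -0.70 ± 0.76 for CEACAM1 (adjusted p = 0.778). With edgeR 0 of 19842 genes (0.0%) passed in either contrast of A549 gates, 223 under TGF-β1 and 1001 under GSK126 had an unadjusted p under 0.05, and DESeq2 called 15 and 0. The CEACAM6 libraries of the high GSK126 gate, at 381 and 435 CPM, lay above those of the low gate, at 290.2 to 351 CPM, as in 5.48% of the genes, and those of CEACAM1 lay below, as in 26.1%. The intervals were wide for the 3 low genes: for CEACAM5, CEACAM7 and CEACAM1 the standard errors ran from 0.71 to 1.33 on the log2 scale. Without the 2 background-rich libraries the TGF-β1 gate value turned to -0.99 for CEACAM5 (adjusted p = 0.496) and -1.01 for CEACAM7 (adjusted p = 0.659), and was -2.21 for CEACAM1 (adjusted p = 0.065).

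**Figure D3:**
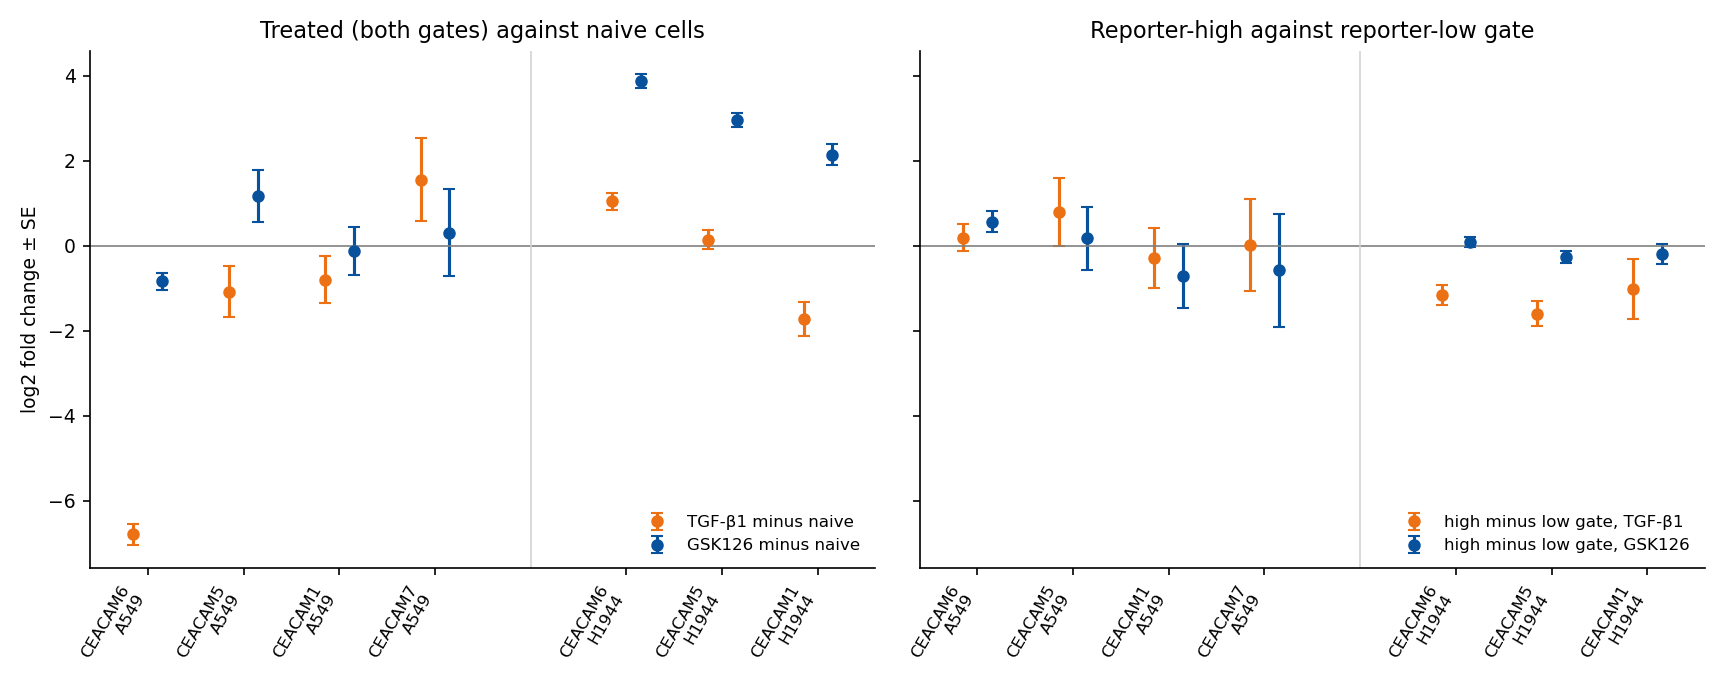
Fitted log2 fold change ± SE of each gene for treated against naive cells (left) and for the reporter-high against the reporter-low gate (right), with A549 and H1944 side by side, TGF-β1 in orange and GSK126 in blue. CEACAM7 did not pass the filter on low counts in H1944. The GSK126 values of H1944 stand at 2.14 to 3.87, and CEACAM6 under TGF-β1 in A549 at -6.79.

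Within the high TGF-β1 gate and within naive cells of A549, the library with most olfactory receptor reads was the highest for CEACAM5, CEACAM7 and CEACAM1 but not for CEACAM6. High TGF-β1 library B, at 313 CPM of olfactory receptor reads, had 8.65 CPM of CEACAM5, 5.76 CPM of CEACAM7 and 13.1 CPM of CEACAM1. High TGF-β1 library A, at 6.66 CPM of olfactory receptor reads, had 0, 0.333 and 0.333 CPM of the same genes, and library C, at 34.3 CPM, had 1.15, 1.57 and 1.47 CPM. CEACAM6 was at 6.43 CPM in library B, between libraries A and C. Naive library A, at 202 CPM of olfactory receptor reads against 20.0 and 45.7 CPM in naive libraries B and C, was the highest naive library for CEACAM5, CEACAM7 and CEACAM1 and the lowest for CEACAM6. The low gates followed this order only in part. Of the low GSK126 libraries, A had the most olfactory receptor reads (96.0 CPM), the lowest CEACAM5 and CEACAM1 and the highest CEACAM7. Of the low TGF-β1 libraries, C had more of these reads than A (125 and 104 CPM), with less CEACAM5 and CEACAM7 and more CEACAM1. Olfactory receptor sums differed little within these low gates, running from 80.0 to 96.0 CPM in the low GSK126 gate. They differed more in the high GSK126 gate, at 43.9 CPM in library A and 6.27 CPM in library B. There A had more CEACAM6 and CEACAM7, slightly more CEACAM5 and slightly less CEACAM1 than B. Whether background reads make up part of the low CEACAM levels of A549 was not tested.

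**Figure D4:**
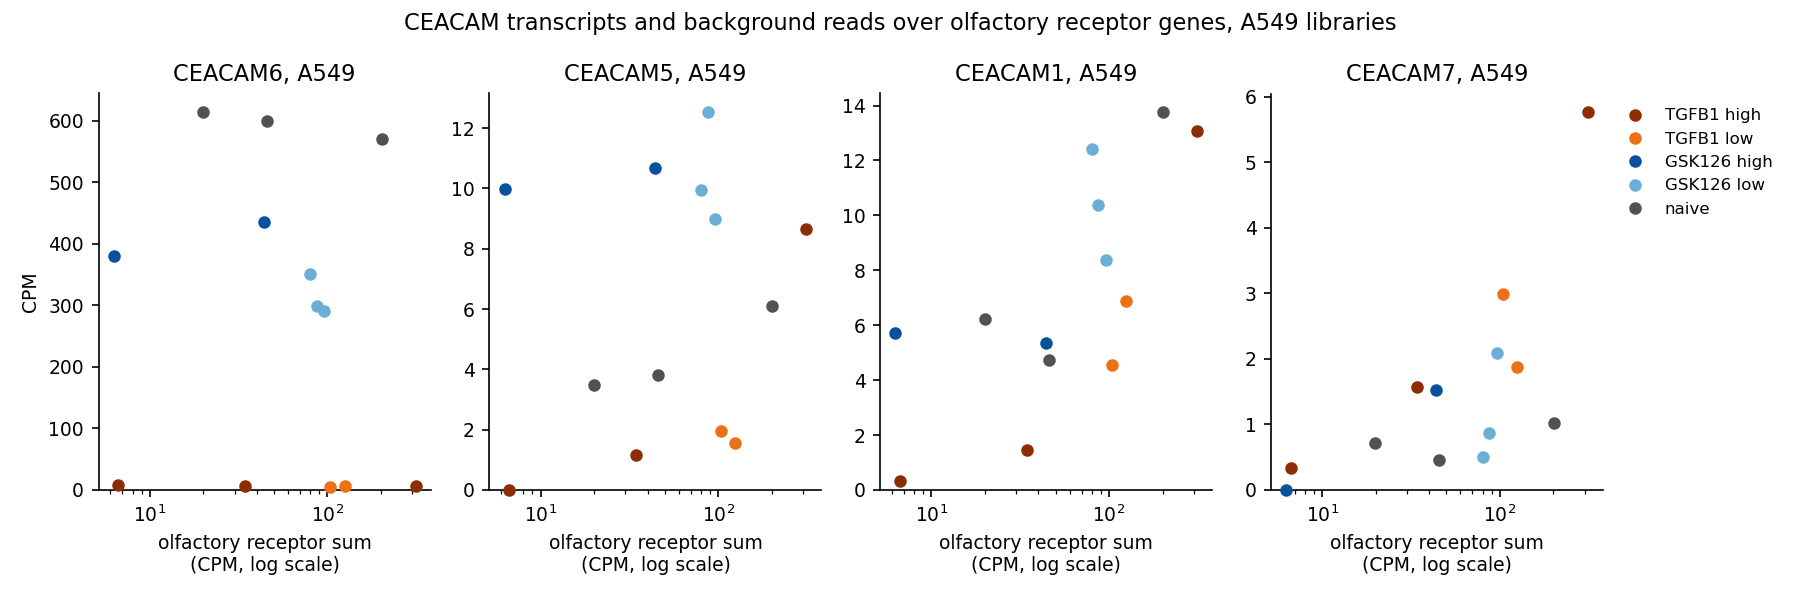
CPM of CEACAM6, CEACAM5, CEACAM1 and CEACAM7 in each A549 library against the CPM summed over 381 olfactory receptor genes in the same library (log axis), coloured by group. The library farthest right, at 313 CPM of olfactory receptor reads, is the highest TGF-β1 library for CEACAM5, CEACAM1 and CEACAM7, and the CEACAM6 levels follow the groups.

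Few of the coding genes beside the CEACAM genes were tested. Of 29 other coding genes within 250 kb of CEACAM1, CEACAM5, CEACAM6 or CEACAM7, 7 were tested in H1944, and under GSK126 0 were higher and 1 was lower, with log2 fold changes from -0.38 to 0.13, beside 40.2% of all genes passing and 21.5% passing upwards. With 7 genes, a count of 0 higher is not far from that share. The gene that was lower was RPS19, a ribosomal protein gene 87710 bases from CEACAM6, at -0.38 ± 0.09 (adjusted p = 0.000679). The other 22 neighbours did not pass the filter, CEACAM3, CEACAM4, CEACAM8 and CEACAM21 among them. In A549, 18 of the 29 were tested under GSK126, of which 0 were higher and 1, RABAC1, was lower (-1.04 ± 0.24, adjusted p = 0.0109), beside 6.96% of all genes passing. CEACAM6, at -0.84, lay within the range of these 18 neighbours, from -1.69 to 0.71. Under TGF-β1 1 neighbour was higher and 1 lower of the 18 in A549, where 19.5% of all genes passed. Of the 7 in H1944, 2 were higher and 4 lower, where 63.7% of all genes passed.

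**Figure D5:**
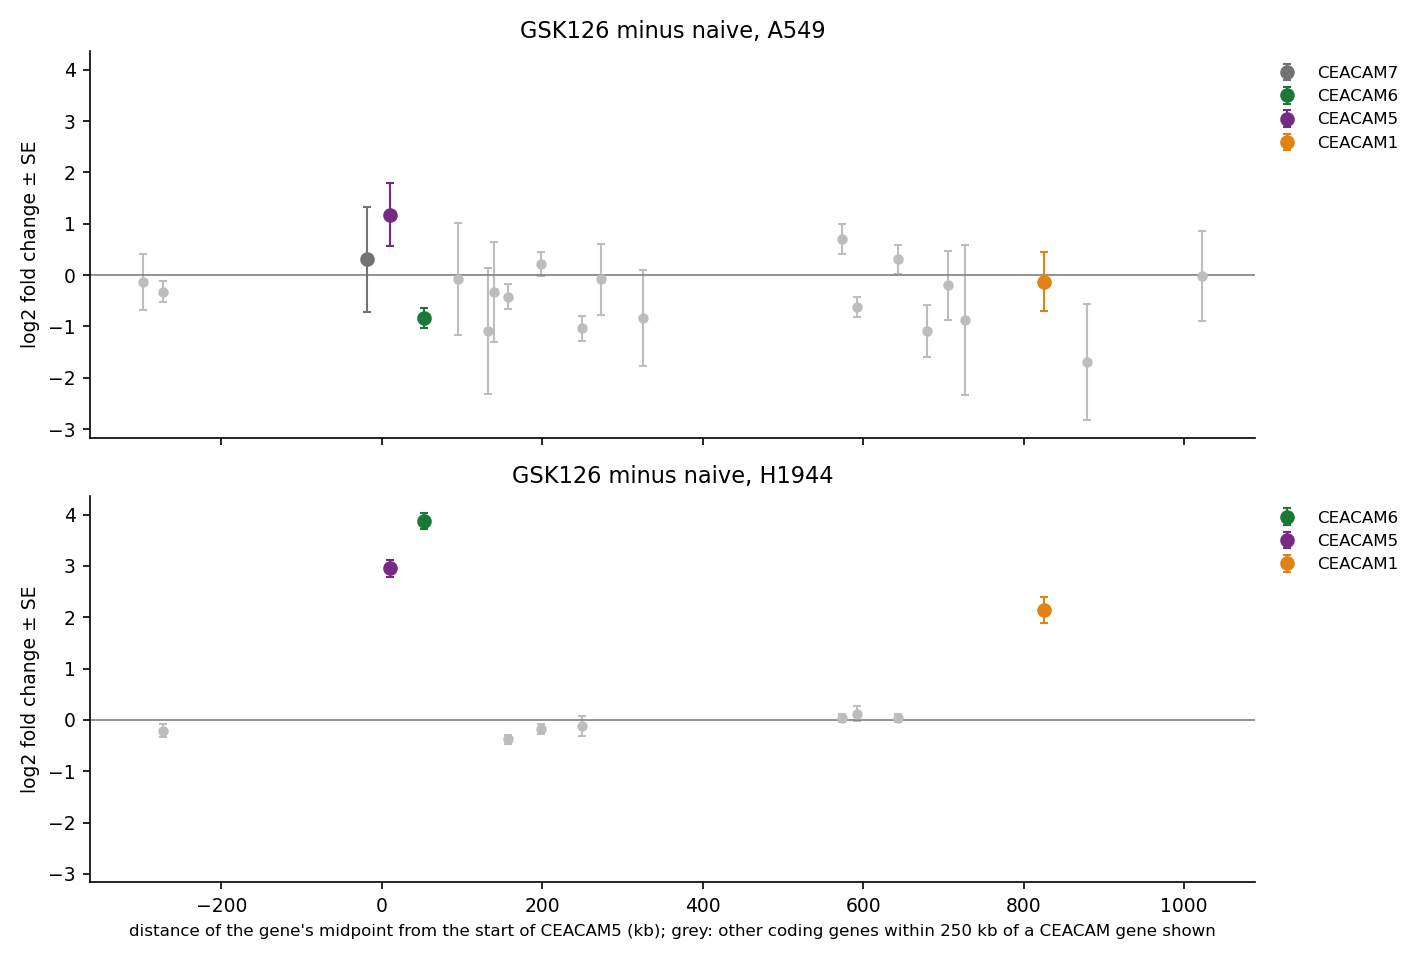
Log2 fold change ± SE under GSK126 against naive cells in A549 (upper) and H1944 (lower) of the CEACAM genes (coloured) and of the other tested coding genes within 250 kb of them (grey), by distance of the gene's midpoint from the start of CEACAM5 in kb. In H1944 CEACAM5, CEACAM6 and CEACAM1 stand at 2.14 to 3.87 and their 7 tested neighbours between -0.38 and 0.13.

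Near copies and overlapping genes were checked because their reads could be counted elsewhere or dropped. Of the 75-base stretches of the annotated transcripts, 0.753% in CEACAM1, 0.110% in CEACAM5, 0.134% in CEACAM6 and 0% in CEACAM7 also occurred in another CEACAM or PSG gene. For 50-base stretches the shares were 3.41% in CEACAM1, 2.70% in CEACAM5, 4.06% in CEACAM6 and 0% in CEACAM7, and the read length is not given in the sources used here. AC243967.1, a readthrough gene from CEACAM5 into CEACAM6, shared 13.9% of the stretches of CEACAM5 and 2.55% of those of CEACAM6, and its own row held 1 count in all TGF-β1 libraries of A549, 1 in the GSK126 libraries of H1944 and 0 elsewhere. How many reads of CEACAM5 were dropped as shared with it was not tested. The antisense gene LIPE-AS1 overlaps CEACAM1 and was at 0.810 ± 0.536 CPM under GSK126 and 1.704 ± 0.687 CPM in naive cells of H1944. The antisense gene AC243967.2 overlaps CEACAM6 and held at most 6 counts in any group. The kit keeps strand, and whether the counting used it is not given in the sources used here.

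Of the 8 other CEACAM genes, only CEACAM19 was tested in H1944, at 15.7 ± 3.98 CPM under GSK126 (n = 6) and 12.9 ± 1.01 CPM in naive cells (n = 3), with a log2 fold change of 0.14 ± 0.19 (adjusted p = 0.598). CEACAM19 rose under TGF-β1 in both lines, to 22.9 ± 1.78 CPM against 7.69 ± 2.07 CPM in naive A549 (1.43 ± 0.24, adjusted p = 0.000264) and to 32.2 ± 6.82 CPM against 12.9 ± 1.01 CPM in naive H1944 (1.35 ± 0.19, adjusted p = 1.41e-07). The other 7 (CEACAM3, CEACAM4, CEACAM8, CEACAM16, CEACAM18, CEACAM20 and CEACAM21) averaged at most 2.58 CPM in any group, and of the 3 tested in A549 beside CEACAM19 0 passed under either treatment. The 10 PSG genes, pregnancy-specific relatives in the same chromosome region, were untested in H1944, and of 8 tested in A549 0 passed under GSK126 or TGF-β1.

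Genes that act with CEACAM proteins, or resemble them, were counted from lists drawn up for this report. The counts under GSK126 stand beside 40.2% of all genes passing in H1944, with 21.5% upwards, and 6.96% in A549, with 3.37% downwards, and none was tested against these shares. Of 14 tested binding and signalling partners, 6 were higher and 3 lower under GSK126 in H1944, with a median log2 fold change of 0.19 beside 0.00 over all genes. The kinase gene SYK (1.93 ± 0.15, adjusted p = 8.73e-13) was among the higher ones, and PTPN11, which encodes the phosphatase SHP-2 that binds CEACAM1, was lower (-0.35 ± 0.07, adjusted p = 0.000226). In A549 3 were higher and 2 lower under GSK126, with EGFR at 1.12 ± 0.21 (adjusted p = 0.00193) and PTPN6, which encodes SHP-1, at -0.92 ± 0.26 (adjusted p = 0.0413). The 24 tested genes of GPI anchor synthesis, needed for CEACAM5, CEACAM6 and CEACAM7 to reach the surface, had 0 higher and 5 lower under GSK126 in H1944 (median -0.17) and 0 higher and 2 lower in A549 (median -0.24, beside -0.18 over all genes). Of 25 tested genes of other GPI-anchored proteins, 15 were higher and 4 lower under GSK126 in H1944 (median 0.57), and 8 higher and 1 lower of 26 in A549 (median 0.72). Of 25 other adhesion molecules of the immunoglobulin superfamily 13 were higher and 4 lower in H1944 (median 0.43), and 4 higher and 2 lower of 26 in A549 (median 0.05). Of 13 tested transcription factors listed for CEACAM promoters, 4 were higher and 5 lower under GSK126 in H1944, with SOX9 at 1.99 ± 0.14 (adjusted p = 8.22e-14), and 2 higher and 2 lower in A549, with KLF5 at -0.89 ± 0.20 (adjusted p = 0.00925).

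The genes whose group means followed each CEACAM gene most closely were found by Pearson's r of log2(CPM + 0.5) over the 10 groups. This was done among 14818 coding genes, as a description with no test. A high r does not mean a change of similar size. PRC1, the first for CEACAM6, had group means from 177 to 337 CPM, whereas CEACAM6 averaged 595 CPM in naive A549 and 5.87 CPM in naive H1944. For CEACAM6 they were PRC1 (r = 0.98), STK32B, MMP7, SLC9A2 and RAP1GAP (each 0.97). MMP7, which encodes the metalloprotease matrilysin, averaged 1.72 and 1.82 CPM in the high and low TGF-β1 gates, 83.8 and 80.0 CPM in the high and low GSK126 gates and 128 CPM in naive cells of A549, and 0.278, 1.00, 21.5, 16.0 and 0.505 CPM in the same order in H1944. For CEACAM5 they were EPOP (r = 0.97), BIRC3, MCUR1, CTSH (each 0.96) and PRKX (0.95), and for CEACAM1 RNF138 (0.98), ASB13, ADGRV1 (each 0.96), AGFG2 (0.95) and MIPEP (0.94). For CEACAM7 they were ATP4A, CCDC170, COL2A1, FLRT2 (each 0.98) and EMX2 (0.97). Of these, FLRT2 averaged 42.2 and 35.2 CPM in the high and low TGF-β1 gates and 8.45 CPM in naive cells of A549, and the other 4 at most 5.49 CPM in any group. Among the 4 genes themselves, CEACAM1 had r = 0.63 with CEACAM5 and 0.63 with CEACAM6, CEACAM5 had 0.45 with CEACAM6, and CEACAM7 had -0.54 with CEACAM5. The r values of CEACAM7 rest on the few counts from which no order of the groups could be read. The 10 points share lines, libraries' depth and the same totals for all genes.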

How the data were processed

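Strand-keeping total RNA libraries (SMARTer pico kit, 10 ng of RNA) were sequenced from sorted or naive cells, per the labels' protocols. The deposited table holds raw read counts per gene, and bcl2fastq 2.20.0, STAR 2.6.0c, HTSeq 0.12.3 and the build GRCh38 are named in the submitters' processing notes. The strand setting and the annotation release used in counting are not given in the sources used here. Of 60487 rows, 60483 carry an Ensembl ID and 4 are reporter sequences. Groups were taken from the sample labels. The libraries of A549 high GSK126 letter C and A549 low TGF-β1 letter B were not analysed here.

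The count test was that of edgeR 4.0.16, run in R 4.3.3 (quasi-likelihood, TMM normalization, filterByExpr, Benjamini-Hochberg adjustment at 0.05), with 1 fit of 5 groups per line and 1 joint fit of 10 groups. Treated cells are the mean of both gates, and the SE is the log2 fold change divided by the square root of F. The filter kept all 4 CEACAM genes for A549, and all but CEACAM7 for H1944 and for the comparison of lines. The fit was tested on simulated data. CPM uses a library's total over all rows. Intervals of counting error and the floor of 3 counts do not cover the spread between libraries.

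The CEACAM genes and all gene lists were chosen with earlier results of these data known. Text names all 4 genes, their neighbours within 250 kb that passed the test under GSK126 and the 5 coding genes most like each. From some lists it names single genes past the test, not always those of largest change or smallest adjusted p. Alternatives were RLE size factors, no filter or a filter at 1 CPM, DESeq2 1.42.0, each gate alone, 1 fit of all libraries, a replicate block, each library left out, and the 2 background-rich A549 libraries left out.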

Additional observations from a re-analysis of the deposited data

Results flagged for a closer look

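The GSK126 effect differed between the lines for the 3 genes that could be tested. The test was the interaction term of the joint edgeR fit, which took the same spread of a gene for both lines. The log2 difference, H1944 minus A549, was 4.71 for CEACAM6, 1.80 for CEACAM5 and 2.36 for CEACAM1. For CEACAM6 the effect was a rise in all 6 GSK126 libraries of H1944 and a fall in all 5 of A549, each relative to every naive library of its line. For CEACAM5 all GSK126 libraries were above the naive ones in both lines, and for CEACAM1 this held in H1944, whereas its A549 libraries overlapped.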

How the results depend on the processing

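Each result was set against its value under the alternatives other than leaving out single libraries. Of these comparisons 251 were the same, 10 stronger, 5 weaker, 5 moved and 7 reversed, and the cause was not tested. Same means direction and call kept for tested values, and a shift below the spread between libraries for untested values, which have no call. For numbers of genes past the test it means a similar number. Stronger and weaker mean a call gained or lost, or more or fewer genes. Under GSK126 in A549, CEACAM1 turned to 0.22 in the low gate alone and 0.27 without the background-rich libraries. CEACAM5 passed without those libraries (1.33, adjusted p = 0.0229) and in 1 edgeR fit of all libraries (1.13, adjusted p = 0.0328), and CEACAM6 lost its call in the high gate alone (-0.55) and with no filter (-0.90). Between the TGF-β1 gates of A549, CEACAM5 turned to -0.99 without the background-rich libraries, and CEACAM7 to -1.01 without them and to -0.14 with no filter. Under TGF-β1 in H1944 the high and low gates alone gave -2.24 and -1.21 for CEACAM1, -0.66 and 0.94 for CEACAM5, and 0.46 and 1.62 for CEACAM6, and CEACAM5 was at -0.017 with no filter.

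Genes past the test under GSK126 in A549 numbered 1381, against 917 and 880 in the high and low gates alone, 2281 with DESeq2, 2776 without the background-rich libraries and 3158 in 1 fit of all libraries. Under TGF-β1 in A549 they numbered 3878, against 2504 in the low gate alone. Between the A549 gates 16 genes passed under GSK126 with no filter, and under TGF-β1 3 passed with no filter, 15 with DESeq2, 41 without the background-rich libraries and 16 in 1 fit of all libraries.

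With each library left out in turn, GSK126 in A549 gave -0.36 to 0.26 for CEACAM1, 1.11 to 1.32 for CEACAM5, -0.96 to -0.69 for CEACAM6 and -2.23 to 0.82 for CEACAM7, and 627 to 2392 genes. GSK126 in H1944 kept all calls, at 1.97 to 2.34 for CEACAM1, 2.80 to 3.05 for CEACAM5 and 3.82 to 3.98 for CEACAM6, with 4002 to 5725 genes. The difference between lines was 1.87 to 2.63 for CEACAM1, 1.58 to 1.90 for CEACAM5 and 4.55 to 4.80 for CEACAM6, with 1400 to 2547 genes. TGF-β1 in A549 gave -1.71 to -0.30 for CEACAM1, -1.92 to -0.84 for CEACAM5, -6.91 to -6.64 for CEACAM6 and 1.08 to 1.81 for CEACAM7 (2459 to 4739 genes), and in H1944 -1.90 to -1.52 for CEACAM1, -0.027 to 0.22 for CEACAM5 and 0.94 to 1.14 for CEACAM6 (7669 to 9087 genes). The A549 gates under TGF-β1 gave -2.26 to 0.15 for CEACAM1, -1.07 to 1.21 for CEACAM5, -0.046 to 0.37 for CEACAM6 and -1.10 to 0.39 for CEACAM7 (0 to 1 genes), and under GSK126 -0.94 to -0.56, -0.025 to 0.40, 0.43 to 0.65 and -5.64 to 0.46 for the same genes (0 genes). The H1944 gates under TGF-β1 gave -1.36 to -0.76 for CEACAM1, -1.73 to -1.44 for CEACAM5 and -1.26 to -0.97 for CEACAM6, and under GSK126 -0.35 to -0.07, -0.38 to -0.16 and -0.0066 to 0.21.

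Whether the letters pair libraries is not settled. Deviations of same-letter libraries correlated at -0.75 to 0.40 in A549 and -0.13 to 0.20 in H1944, not all above 0.1, so no pairing was used. As a hint from the data only, 4 of 5 GSK126 libraries of A549 and 1 of 6 of H1944 correlated best with the naive library of their own letter. With the replicate block no call on the CEACAM genes was lost or gained: under GSK126 the values were -0.82 for CEACAM6 in A549 (adjusted p = 0.0481) and 3.83 for CEACAM6 in H1944, and 986 and 5401 genes passed. Few counts limit CEACAM7 in H1944 (at most 3 in a library) and in 4 of 13 A549 libraries (under 3), and CEACAM1 under TGF-β1 in H1944. Between the H1944 gates under GSK126, 942 genes passed, against 570 with no filter and 77 in 1 fit of all libraries.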
